A study of Mus musculus with 5 samples.

Results

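The splicing factors and nuclear RNA-binding proteins described here are 41 of the 19057 genes named on a single-colour Illumina bead array. They were chosen by gene symbol: every gene whose symbol in the platform annotation begins with Hnrnp (formerly Hnrp), Srsf (formerly Sfrs) or Snrp followed by a letter from a to g, together with Tardbp and Npm1. These genes have 104 of the 45281 probes, in 4 groups: 20 hnRNP genes (58 probes), 10 SR protein genes (24 probes), 9 genes of snRNP proteins (14 probes), and Tardbp and Npm1 (8 probes). The grouping was proposed with results of these arrays known, so its values are given as a description and no list test was run.

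Total RNA was measured from parvalbumin-positive cells sorted from the cerebral cortex of C57BL/6J mice at zeitgeber time 16 h, counted from lights-on. The 2 KO samples (replicates 1 and 3, aged 61 and 60 days) were labelled PV-GFP; Clock-/- and the 3 WT samples (replicates 1, 2 and 3, aged 61, 64 and 64 days) PV-GFP; Clock+/+, so both genotypes carried PV-GFP, a green fluorescent label of parvalbumin cells by its name. The labels do not say whether a sample was 1 animal or a pool, and replicate error therefore covers only the spread between these samples. The comparison asks what the loss of Clock, a circadian transcription factor subunit that pairs with BMAL1, does to these inhibitory interneurons.

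Heterogeneous nuclear ribonucleoproteins (hnRNPs) coat pre-mRNA as it is made and often repress the use of exons, while SR proteins, named for their serine- and arginine-rich tails, bind exonic enhancers and help recruit the spliceosome. The Snrp genes studied here encode Sm proteins, which form a ring on spliceosomal small nuclear RNAs, and proteins particular to single snRNPs. Tardbp encodes an hnRNP-like protein that represses cryptic exons and forms inclusions in degenerating neurons, and Npm1 encodes nucleophosmin, a nucleolar protein of ribosome assembly. Neurons depend on this machinery for the alternative splicing of channel and synaptic transcripts.

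CLOCK and BMAL1 bind E-boxes, and the canonical E-box (CACGTG, which reads the same on both strands) was searched for in promoter windows of 300 bases, from 250 bases before to 50 after each RefSeq gene start (assembly GRCm38.p6). Of the 36 genes matched to a window, 6 (16.7%) held the motif, against 8.09% of all 27025 genes with a window. Of these 6, Hnrnpa3, Hnrnpd, Hnrnpm and Snrpa had a probe above background on at least 2 arrays, and Hnrnpf and Hnrnph2 did not. The windows of the 4 measured genes are shown because they carry the letters that CLOCK is known to bind, with the motif in capitals, and that of Tardbp because it had the smallest p of the group. A match is a description of the letters and not a bound site. Snrpa has another RefSeq start with 1 match in its window, and the Tardbp window holds no match.
Hnrnpa3 (chr2:75659009-75659308, strand +): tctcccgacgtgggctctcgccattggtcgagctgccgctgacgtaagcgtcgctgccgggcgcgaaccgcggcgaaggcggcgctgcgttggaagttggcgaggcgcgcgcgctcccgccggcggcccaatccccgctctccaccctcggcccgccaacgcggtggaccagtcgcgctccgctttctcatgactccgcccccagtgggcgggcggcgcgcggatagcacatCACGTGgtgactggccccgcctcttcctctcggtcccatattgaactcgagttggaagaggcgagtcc
Hnrnpd (chr5:99978889-99979188, strand -): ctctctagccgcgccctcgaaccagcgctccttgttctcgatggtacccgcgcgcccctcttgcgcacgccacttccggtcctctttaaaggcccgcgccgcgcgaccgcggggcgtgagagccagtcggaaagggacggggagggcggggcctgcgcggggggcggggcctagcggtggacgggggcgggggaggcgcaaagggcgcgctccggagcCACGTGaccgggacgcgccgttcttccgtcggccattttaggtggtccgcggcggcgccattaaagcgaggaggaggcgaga
Hnrnpm (chr17:33685409-33685708, strand -): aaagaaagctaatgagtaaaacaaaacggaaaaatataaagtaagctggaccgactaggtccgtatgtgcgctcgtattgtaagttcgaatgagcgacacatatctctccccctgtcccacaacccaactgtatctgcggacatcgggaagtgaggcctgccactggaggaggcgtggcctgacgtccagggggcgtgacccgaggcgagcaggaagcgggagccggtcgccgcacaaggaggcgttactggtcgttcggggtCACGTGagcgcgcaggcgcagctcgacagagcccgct
Snrpa (chr7:27196222-27196521, strand -): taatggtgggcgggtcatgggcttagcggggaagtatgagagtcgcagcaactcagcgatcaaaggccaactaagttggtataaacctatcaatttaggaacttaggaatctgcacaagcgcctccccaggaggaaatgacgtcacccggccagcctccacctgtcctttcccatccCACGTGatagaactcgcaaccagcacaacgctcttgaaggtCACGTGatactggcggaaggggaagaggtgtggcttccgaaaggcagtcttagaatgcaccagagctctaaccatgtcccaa
Tardbp (chr4:148626947-148627246, strand -): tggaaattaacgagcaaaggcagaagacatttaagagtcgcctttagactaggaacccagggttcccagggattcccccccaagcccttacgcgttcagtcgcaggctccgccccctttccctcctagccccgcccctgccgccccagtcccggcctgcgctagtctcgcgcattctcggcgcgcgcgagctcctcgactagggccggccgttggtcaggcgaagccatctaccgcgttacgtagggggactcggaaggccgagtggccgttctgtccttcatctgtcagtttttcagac

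A probe was counted as above background on an array when its deposited detection p was under 0.05. Few probes of any kind met this, from 4.37% on KO replicate 3 and 5.98% on KO replicate 1 to between 5.93% and 8.11% on the WT arrays, and KO replicate 3 also stood apart in its correlation with the other arrays (0.751 to 0.827 across tested probes, against 0.860 to 0.924 among the others). All 3 Clock probes stayed at background on all 5 arrays, so Clock does not check the genotype labels. Genes of inhibitory neurons were measured: the GABA-synthesising enzyme genes Gad1 and Gad2 each had a probe above background on all 5 arrays, and Pvalb on 4. Arrays were background corrected and quantile normalised, and values below are on that log2 scale unless given as raw signals.

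Splicing and nuclear RNA-binding genes were above background far more often than the array as a whole. A probe above background on at least 2 of the 5 arrays, the condition for testing, was found for 22 of the 41 genes (53.7%), against 2247 of 19057 named genes (11.8%). By probe the count was 32 of 104 (30.8%), against 7.39% of all probes. On single arrays 22 and 26 of the 104 probes were above background on KO replicates 1 and 3, and 38, 27 and 19 on WT replicates 1, 2 and 3. KO replicate 3 thus had fewer detected probes than any other array in all and more of this group than KO replicate 1 or WT replicate 3. These shares describe genes picked with earlier results known and were not tested.

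**Figure D1:**
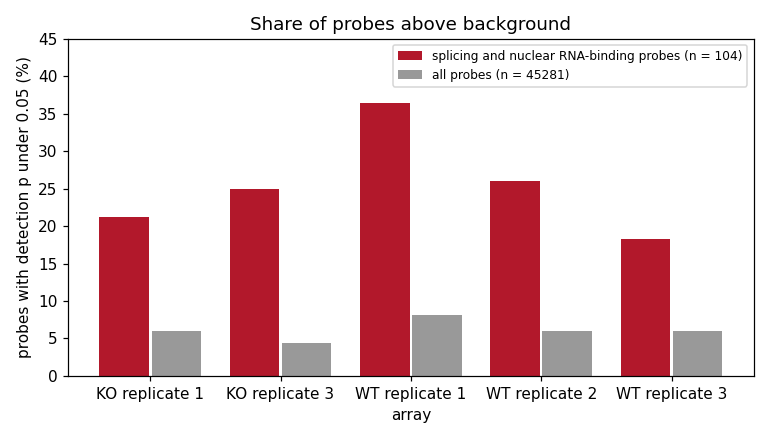
Share of probes with a detection p under 0.05 on each array, for the 104 probes of splicing and nuclear RNA-binding genes (red) and for all 45281 probes (grey). The share of the group lies between 18.3% and 36.5% on every array, against 4.37% to 8.11% for all probes.

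The genes with the firmest signals came from all 4 groups. A probe was above background on all 5 arrays for 8 genes (14 of the 104 probes, against 2.29% of all probes): Hnrnph1, Hnrnpm and Hnrnpul2 among hnRNPs, Srsf2, Srsf5 and Srsf10 among SR proteins, the Sm protein gene Snrpb, and Tardbp. The other 14 tested genes were Hnrnpa1, Hnrnpa2b1, Hnrnpa3, Hnrnpab, Hnrnpc, Hnrnpd, Hnrnpdl, Hnrnph3, Hnrnpk, Srsf1, Srsf4, Srsf11, Snrpa and Npm1, each above background on 2 to 4 arrays. A further 3 genes, Hnrnpa0, Srsf6 and Snrpf, had a probe above background on exactly 1 array. No probe of the remaining 16 genes was above background anywhere: Hnrnpf, Hnrnph2, Hnrnpl, Hnrnpll, Hnrnpr, Hnrnpu, Hnrnpul1, Srsf3, Srsf9, Srsf12, Snrpb2, Snrpd1, Snrpd2, Snrpd3, Snrpe and Snrpg. For these no fold is given, and a probe at background does not show that the gene was silent. Of 9 snRNP protein genes only Snrpa and Snrpb could be measured, the lowest share of the 3 families, beside 12 of 20 hnRNP and 6 of 10 SR protein genes.

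**Figure D2:**
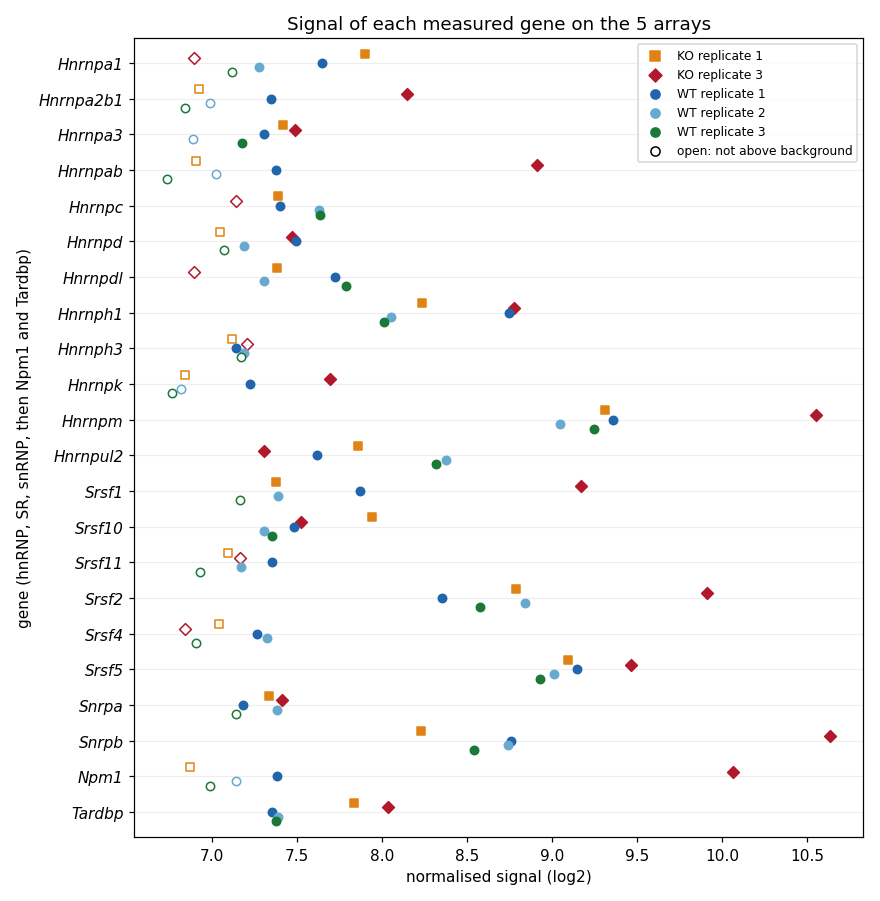
Normalised log2 signal on each array for the 22 measured genes, each by its brightest tested probe. Squares and diamonds are KO replicates 1 and 3, circles the 3 WT arrays, and open symbols mark values not above background. Under this quantile normalization Npm1, Snrpb, Hnrnpm, Hnrnpab, Srsf1 and Srsf2 are among those far to the right on KO replicate 3, while Tardbp lies to the right on both KO arrays.

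None of the 32 tested probes differed between genotypes past the threshold. Limma's fit over all 3347 tested probes called 0 of them at an adjusted p under 0.05 (0% of tested probes), with 101 higher (3.02%) and 97 lower (2.9%) in KO at an unadjusted p under 0.05. Of the group's probes 3 were among the higher ones, 1 each of Tardbp, Hnrnph1 and Hnrnpm, and 0 among the lower ones. The smallest adjusted p in the group was 0.801, equal to the smallest on the array. As a description, 23 of the 32 probes had a higher mean in KO and 9 a lower one (71.9% higher, against a background of 50.6% of tested probes). Their median difference was 0.29, against 0.0048 over all tested probes, on the log2 scale as KO minus WT. Taking 1 probe per gene, 16 of 22 genes were higher in KO and 6 lower. For any 1 probe, 2 arrays against 3 allow no two-sided exact permutation p under 0.1.

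The higher median rested on KO replicate 3. Over the 32 probes the median deviation from the WT mean was -0.096 on KO replicate 1 and 0.40 on KO replicate 3, beside 0.0069 and -0.026 over all tested probes. KO replicate 3 lay above the WT mean for 24 of the 32 probes and KO replicate 1 for 11, where the background was 46.6% and 50.8% of tested probes. The value on KO replicate 3 was the highest of the 5 arrays for 21 of the 32 probes (65.6%, against 23.8% of all tested probes). A probe each of Hnrnpa2b1, Hnrnpab, Hnrnpk, Npm1 and Srsf1 met the condition for testing only through KO replicate 3. All of these are among the 21. When KO replicate 3 was left out and the other arrays were renormalised, 11 of 27 probes were higher in KO and 16 lower. That was 40.7% higher, against 51.4% of all probes tested there, with a median of -0.063, against 0.012. Without KO replicate 1 the group's median was 0.42, against -0.041 over all tested probes. The scaling also bore on it, as seen when background-corrected arrays were set to a common median in place of quantile normalization. The median of all tested probes then moved to -0.39, and only 0.329% of them lay above 0. All 32 probes of the group lay below 0, with a median of -0.53, and KO replicate 3 was the highest array for 0 of the 32.

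**Figure D3:**
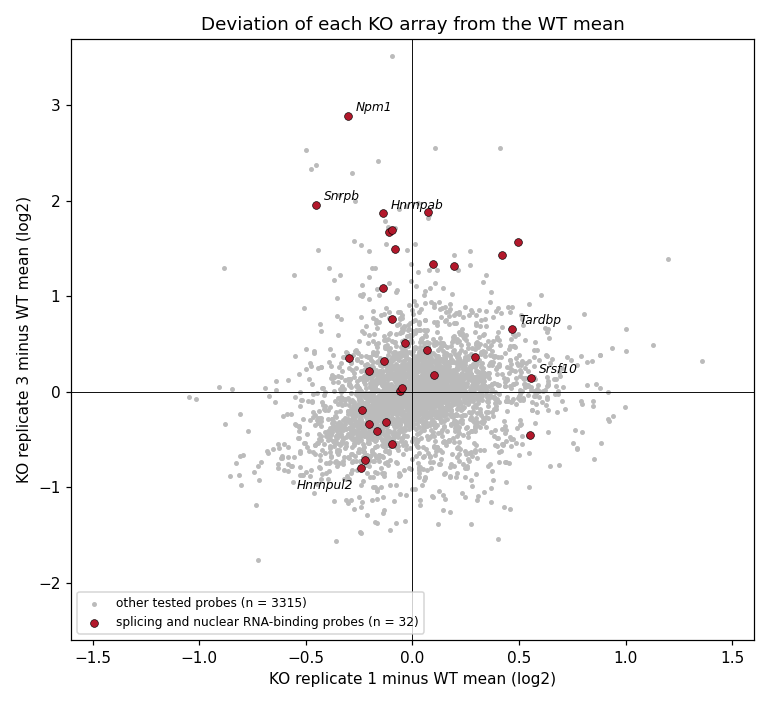
Deviation from the WT mean on the log2 scale, KO replicate 1 across and KO replicate 3 upward, for the other tested probes (grey) and 32 probes of splicing and nuclear RNA-binding genes (red). Many red points lie high on KO replicate 3 and near 0 on KO replicate 1 under quantile normalization, with Npm1 at 2.89 and Snrpb at 1.96, and Tardbp lies above 0 on both.

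Under quantile normalization, markers of the sorted cells were by their medians lower on KO replicate 3, the array on which the splicing genes were then high. No marker values are given under median scaling. The median of 5 tested probes of GABA neuron markers was 8.96 on KO replicate 1 and 8.42 on KO replicate 3, against 9.15, 9.28 and 9.03 on the WT arrays. The median of 8 tested probes of parvalbumin interneuron markers was 7.91 and 7.20, against 8.01, 8.16 and 8.14, and Pvalb itself read 8.22 and 7.19, against 8.88, 9.18 and 8.79. KO replicate 3 was the lowest array for 4 of the 5 GABA neuron probes and 6 of the 8 parvalbumin probes. It was not for Gad2 (8.96 and 8.98 on KO replicates 1 and 3) or for Vamp1. The brighter Vamp1 probe was highest on KO replicate 3, at 8.55, against 7.55, 7.99 and 7.99 on the WT arrays. Of the markers of other cells, 0 of 9 excitatory neuron and 0 of 9 microglia genes were above background on any array, and endothelial and mural genes numbered 0 of 9 on each KO array and 1, 0 and 1 of 9 on the WT arrays. Genes of other interneurons above background numbered 2 and 0 of 9 on KO replicates 1 and 3, against 2, 1 and 1 on the WT arrays. Astrocyte genes numbered 0 and 0 of 8, against 1, 1 and 1, oligodendrocyte lineage genes 1 and 0 of 9, against 0, 1 and 1, and blood genes 1 and 0 of 5, against 1, 1 and 1. General neuron markers had a median of 7.32 and 7.35 in KO, against 7.54, 7.58 and 7.51 in WT. The counts for other cells were low on every array, and KO replicate 3 had the lowest share of probes above background in all (4.37%). The part of cell makeup in the values of KO replicate 3 was not tested, and in sorted bulk samples fewer cells of a type and less RNA per cell cannot be told apart.

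Tardbp had the smallest unadjusted p of the group, 0.00792, and its KO arrays lay close together. Its probe ILMN_3029953 was above background on all 5 arrays and read 7.84 and 8.03 on KO replicates 1 and 3, against 7.35, 7.39 and 7.37 on WT replicates 1, 2 and 3. Both KO arrays thus stood above all 3 WT arrays, which lay within a narrow range. The means were 7.93 ± 0.14 (SD, n = 2) in KO and 7.37 ± 0.017 (SD, n = 3) in WT, a difference of 0.56 ± 0.15 (SE) with a limma adjusted p of 0.801. On raw signals the groups overlapped, with 3447 and 3159 in KO and 1975, 2945 and 3371 in WT, on arrays whose median signals ran from 1121 on WT replicate 1 to 1991 on WT replicate 3. The other 5 Tardbp probes were above background on no array. Leaving out WT replicate 1 gave a difference of 0.17, and median scaling of the arrays gave -0.36, beside -0.39 over all tested probes.

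Non-overlap of this kind was about as common in the group as elsewhere. Both KO arrays stood above all WT arrays for 5 of the 32 probes (background 11.2% of tested probes) and below them for 4 (background 10.6%). Beside Tardbp, the 5 were probes of Hnrnpa3, Srsf10, Hnrnph1 and Hnrnpm. Hnrnpa3, which binds the RNA trafficking element of dendritic transcripts, read 7.42 and 7.48 on the KO arrays, against 7.31, 6.88 and 7.17 on the WT arrays, where replicate 2 was not above background. The difference was 0.33 ± 0.18 (SE). Srsf10, a splicing repressor activated by dephosphorylation, read 7.94 and 7.52 in KO, against 7.48, 7.30 and 7.35 in WT, so that KO replicate 3 lay just above WT replicate 1. Its difference of 0.35 ± 0.18 (SE) became 0.14 when WT replicate 1 was left out and 0.16 when KO replicate 1 was. The limma adjusted p was 0.801 for each.

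The probes below all WT arrays belonged to Hnrnpc, Hnrnpa2b1, Hnrnph1 and Hnrnpul2. Hnrnpc, which binds uridine tracts and measures the length of nascent transcripts, read 7.39 and 7.14 on KO replicates 1 and 3, against 7.40, 7.63 and 7.63 on the WT arrays. KO replicate 1 was only just below WT replicate 1, and KO replicate 3 was not above background. The difference was -0.29 ± 0.17 (SE, limma adjusted p 0.801), and -0.15 without WT replicate 1. The Hnrnpa2b1 probe ILMN_2508137 was above background on all 3 WT arrays and on neither KO array, which gives a bound of at least 1.04-fold lower in KO (adjusted p 0.801 in limma's fit). It read 7.07 and 6.94 in KO, against 7.13, 7.27 and 7.43 in WT. Of Hnrnpul2 the probe concerned was above background on no KO array and on 2 WT arrays, too close to background to give a fold.

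Npm1 had the largest difference in the group and rested on a single array. Its probe ILMN_2970473 read 6.87 and 10.06 on KO replicates 1 and 3, against 7.38, 7.14 and 6.99 on the WT arrays. Raw signals were 2540 and 4610 in KO, against 1999, 2678 and 2880 in WT. KO replicate 3 was thus far above every other array on raw and quantile normalised values, though only 0.016 above the WT mean with median scaling, while KO replicate 1 had the lowest normalised value of all, and the probe was above background only on KO replicate 3 and WT replicate 1. The means were 8.46 ± 2.26 (SD, n = 2) in KO and 7.17 ± 0.20 (SD, n = 3) in WT, and the difference of 1.30 ± 0.79 (SE) had a limma adjusted p of 0.801. The second probe, ILMN_2763651, went the other way between the KO arrays, with 7.10 on KO replicate 1 and 6.69 on KO replicate 3, and KO replicate 3 lay below all WT arrays, which read 7.41, 6.84 and 6.80. It was above background on WT replicate 1 only.

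Snrpb, whose protein is a core member of the Sm ring, showed the same form with a firmer signal. Its probe was above background on every array and read 8.23 and 10.64 on KO replicates 1 and 3, against 8.76, 8.74 and 8.54 on the WT arrays. KO replicate 1 lay below all WT arrays and KO replicate 3 above them, so the KO mean of 9.43 ± 1.70 (SD, n = 2) describes neither array, beside 8.68 ± 0.12 (SD, n = 3) in WT. Without KO replicate 3 the difference was -0.47, and without KO replicate 1 it was 1.90, each resting on a lone KO array. For Npm1 the difference without KO replicate 1 was 3.03. Snrpa, the protein of the snRNP that recognises the donor splice site, read 7.33 and 7.41 in KO, against 7.18, 7.38 and 7.14 in WT, with overlapping groups and a difference of 0.14 ± 0.16 (SE), which was 0.058 without WT replicate 1 and 0.23 without WT replicate 2.

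In 12 of the 32 probes, from 8 genes, KO replicate 3 exceeded the WT mean by at least 1 log2 unit (37.5%, against 2.24% of all tested probes), and in 0 did KO replicate 1 (background 0.149%). The 8 genes were Npm1, Snrpb, Hnrnpab, Hnrnph1, Hnrnpm, Hnrnpa2b1, Srsf1 and Srsf2. The probes of Npm1, Hnrnpab and Hnrnpa2b1 were above background only on KO replicate 3 and WT replicate 1. They met the condition for testing only through the array on which they were high, and they count in the 37.5%. Hnrnpab, which binds single-stranded nucleic acids and transports neuronal mRNA, read 6.91 and 8.91 on the KO arrays, against 7.37, 7.02 and 6.74 on the WT arrays, and was above background only on KO replicate 3 and WT replicate 1. Srsf1, an SR protein that promotes exon inclusion and leaves the nucleus with mRNA, read 7.38 and 9.17 in KO, against 7.87, 7.38 and 7.16 in WT. KO replicate 1 lay inside the WT range for Srsf1 and KO replicate 3 above it. Srsf2, a nuclear speckle protein that binds exonic enhancers, read 8.79 and 9.91 in KO, against 8.35, 8.84 and 8.57 in WT, again with KO replicate 1 inside the WT range. Without KO replicate 3 the differences were -0.10 for Srsf1 and 0.20 for Srsf2, in place of 0.80 and 0.76, and Hnrnpab no longer had 2 arrays above background.

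Hnrnpm, which regulates exon choice, was the gene measured by most probes with a common direction. All 3 of its probes were above background on all 5 arrays, and all 3 were higher in KO on average. ILMN_2921103 read 9.31 and 10.55 on KO replicates 1 and 3, against 9.36, 9.05 and 9.24 in WT, and ILMN_1239021 read 7.53 and 9.32, against 7.97, 7.58 and 7.37. ILMN_2921095 was the one on which the groups did not overlap, with 8.42 and 9.43 in KO, against 8.22, 8.07 and 7.69 in WT. The 3 differences were 0.72, 0.78 and 0.93, with limma adjusted p 0.801 for each. On KO replicate 1 alone the same probes deviated from the WT mean by 0.096, -0.11 and 0.42, and on KO replicate 3 by 1.33, 1.68 and 1.43. Without KO replicate 3 the difference on ILMN_2921103 was 0.098.

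Hnrnph1, which binds runs of guanines and regulates splicing near them, was measured by 5 probes that did not move together. On 4 of them KO replicate 3 was the highest array: ILMN_2684987 read 7.52 and 9.32 on KO replicates 1 and 3, against 7.72, 7.37 and 7.23 in WT, and ILMN_2684986 read 8.17 and 9.25, against 7.94, 7.73 and 7.36. ILMN_1256671 ran the other way, with 8.05 and 7.60 in KO, against 8.14, 8.05 and 8.24 in WT, so that both KO arrays lay below all WT arrays, KO replicate 1 by less than the second decimal. The KO minus WT differences were 0.98, 1.03 and -0.32 on these 3 probes, and 0.70 and 0.24 on ILMN_1218767 and ILMN_2688923, the brightest. On ILMN_2688923 KO replicate 3 at 8.78 was matched by WT replicate 1 at 8.75. All 5 probes carry the same gene symbol, and which transcripts each of them reads was not examined.

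**Figure D4:**
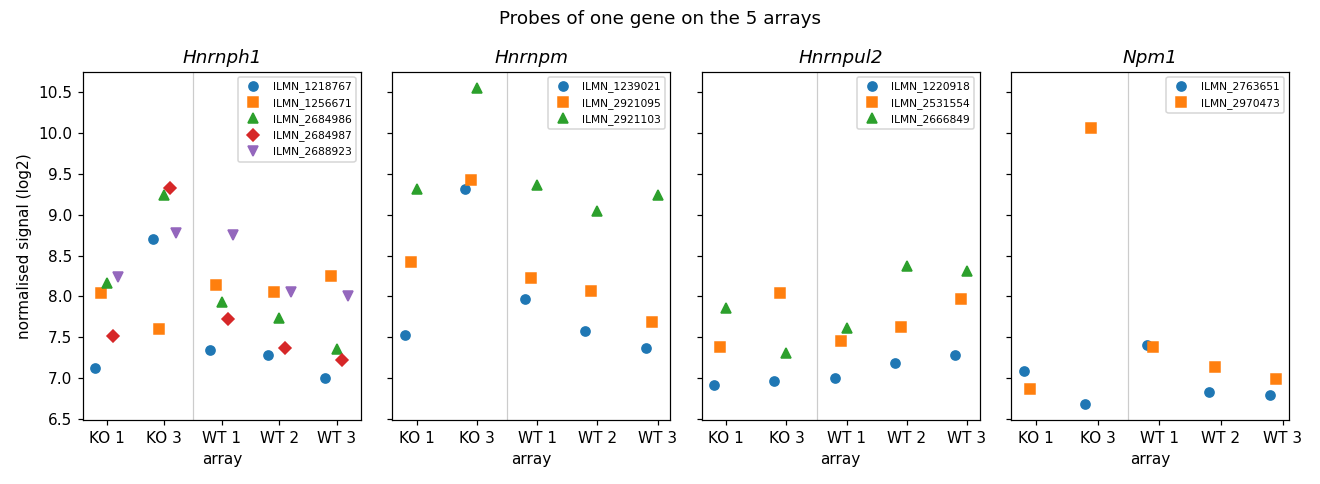
Normalised log2 signal of each probe of Hnrnph1, Hnrnpm, Hnrnpul2 and Npm1 on the KO arrays (left of the line) and the WT arrays (right of it). On KO replicate 3, 4 Hnrnph1 probes, all 3 Hnrnpm probes, 1 Hnrnpul2 probe and 1 Npm1 probe are the highest of the 5 arrays, while the other probes of these genes are not.

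Probes of a gene also disagreed for Hnrnpul2 and Hnrnpa2b1. The 2 Hnrnpul2 probes above background on every array differed by -0.52 ± 0.28 (SE) for ILMN_2666849 and 0.029 ± 0.25 (SE) for ILMN_2531554. The value of ILMN_2666849 was -0.25 without KO replicate 3, -0.89 without KO replicate 1 and -0.27 without WT replicate 1. ILMN_2666849 read 7.86 and 7.30 in KO, against 7.62, 8.37 and 8.31 in WT, with KO replicate 1 inside the WT range and KO replicate 3 below it. ILMN_2531554 read 7.39 and 8.04 in KO, against 7.45, 7.62 and 7.97 in WT, with KO replicate 1 below and KO replicate 3 above the WT range. For Hnrnpa2b1, a reader of methylated adenosine and of neuronal RNA trafficking signals, ILMN_2771074 read 6.92 and 8.14 in KO, against 7.35, 6.99 and 6.84 in WT. That probe was above background only on KO replicate 3 and WT replicate 1, while ILMN_2508137 was above background on neither KO array, as given above. Processed pseudogenes are common for genes of this kind, Npm1 and Hnrnpa1 among them, and signal from near-identical copies cannot be told apart here.

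The remaining measured hnRNP genes gave smaller or mixed values. Hnrnpdl, a relative of Hnrnpd in mRNA turnover, read 7.38 and 6.89 in KO, against 7.72, 7.30 and 7.79 in WT, a difference of -0.47 ± 0.23 (SE) that was -0.24 without KO replicate 3. Hnrnpa1, which represses exons and silences splice sites, split the KO arrays, with 7.90 on replicate 1 above all WT arrays (7.65, 7.28 and 7.12) and 6.89 on replicate 3 below all of them and not above background. Its difference was 0.048, and 0.59 without KO replicate 3 and -0.50 without KO replicate 1. Hnrnpk, a poly(C)-binding protein, read 6.84 and 7.69 in KO, against 7.22, 6.82 and 6.76 in WT, above background only on KO replicate 3 and WT replicate 1. Hnrnpd, which binds AU-rich elements and governs mRNA decay, differed by 0.0092, with 7.05 and 7.47 in KO inside the WT range of 7.07 to 7.49 but for KO replicate 1 just under it. Hnrnph3 was above background on 2 WT arrays and no KO array, close to background throughout.

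Among the other SR proteins, Srsf5, a splicing regulator, had 1 of the firmest signals, above background with a detection p of 0 on every array. It read 9.09 and 9.46 in KO, against 9.14, 9.01 and 8.93 in WT, so that KO replicate 1 lay inside the WT range and KO replicate 3 above it. The difference of 0.25 ± 0.18 (SE, limma adjusted p 0.801) was 0.069 without KO replicate 3. Srsf4 and Srsf11 were each above background on 2 WT arrays and on no KO array, and both lay too near background for a fold. The second Srsf1 probe, ILMN_3142235, read 6.84 and 7.29 in KO, against 7.13, 6.92 and 6.85 in WT, and was above background only on KO replicate 3 and WT replicate 1.

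The 4 measured genes with a canonical E-box differed by 0.33 (Hnrnpa3), 0.0092 (Hnrnpd), 0.72 (Hnrnpm, brightest probe) and 0.14 (Snrpa), none past limma's threshold. Only 19 of the 22 measured genes had a promoter window. Npm1, Snrpb and Hnrnpul2 had none and were not searched. Counted from the gene start, the first base of the motif lay at -18 in Hnrnpa3, -32 in Hnrnpd, 14 in Hnrnpm and -73 in Snrpa.

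Other genes of RNA processing were evenly split between the genotypes. Across 9 lists of spliceosome, snRNP assembly, splicing regulator, decay, nucleolar, polyadenylation and export genes, 42 of 217 genes on the array had a tested probe. Of their 48 tested probes 24 were higher in KO and 24 lower, with a median of 0.0085, and limma called 0 with 1 at an unadjusted p under 0.05. Their median deviation was -0.023 on KO replicate 1 and 0.0057 on KO replicate 3, which was the highest array for 13 of the 48 (background 23.8% of tested probes). The difference between these lists and the splicing and nuclear RNA-binding genes was not tested. The brightest of the other spliceosome components were Prpf19 (-0.11), Plrg1 (0.17) and Sf3b1 (0.35), proteins of the active and branch-site complexes, in a list with 4 probes higher and 8 lower. Plrg1 split the KO arrays, with 8.52 on replicate 1 above all WT arrays (8.06, 7.61 and 7.25). Its value on KO replicate 3, 7.10, was below all of them and not above background. Sf3b1 read 7.28 and 7.85 on KO replicates 1 and 3, against 7.09, 7.34 and 7.21 in WT.

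The list nearest to the hnRNPs in function was that of FET, paraspeckle and other nuclear RNA-binding proteins. It had 7 of 8 probes higher in KO (87.5%, against 50.6% of all tested probes), with a median of 0.15. Matr3, a nuclear matrix protein that binds RNA, differed by 0.44 ± 0.19 (SE), Rbm39 by 0.023 and Khsrp by 0.16. Splicing regulators with neuronal or tissue-specific roles ran the other way, with 2 of 8 probes higher (25%) and 6 lower and a median of -0.20. Among them Rbfox2 differed by 0.33 and Rbfox1 by -0.53. Rbfox2 read 7.16 on KO replicate 1, not above background, and 8.19 on KO replicate 3, against 7.13, 7.57 and 7.35 in WT. Celf2 was above background on 2 WT arrays and no KO array, which gives a bound of at least 1.34-fold lower mean signal in KO. Its value on WT replicate 3, 7.13, was close to the KO values of 7.03 and 6.94 (limma adjusted p 0.801). SR-related proteins and SR kinases (Srrm2 -0.15, Tra2a -0.20, Rnps1 0.13) had 2 probes higher and 2 lower, and poly(A) addition and export genes (Cstf2 0.30, Nxf1 0.17, Thoc2 0.24) 3 and 3. Of the SMN complex and snRNP assembly genes, Gemin2 (0.086) and Coil (0.11) were near 0. Gemin4 was above background on both KO arrays and no WT array, which gives a bound of at least 1.13-fold higher mean signal in KO. LSm proteins were Lsm6 (0.12), Lsm10 (0.29) and Lsm12, close to background throughout, with a bound of at least 1.02-fold lower mean signal in KO. The exon junction and decay genes were Casc3 (-0.39), Smg1 (0.27) and Smg9 (-0.0059), and Nolc1 (-0.12) was the only nucleolar gene tested. Smg1 read 7.78 on KO replicate 1 and 7.07 on KO replicate 3, not above background, against 6.96, 7.28 and 7.22 in WT. No gene in these lists passed limma's test (smallest adjusted p 0.801).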

How the data were processed

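Total RNA of 5 sorted samples was amplified by whole-transcriptome amplification and biotin-labelled, per the labels' protocols. The authors deposited raw bead intensity values and a detection p-value per probe and array, per the file headers, and, in a second table, processed intensity values whose making no source here describes. GenomeStudio was used, per the submitters' processing notes.

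Groups came from the sample titles. Of 45281 probes, 34885 had 1 gene symbol in the platform annotation, which can be old, 18 had several and 10378 had none. The neqc function of limma 3.58.1 (R 4.3.3) subtracted background and quantile normalised the deposited intensities to a log2 scale, with an offset of 16. The test of KO against WT took probes whose detection p was under 0.05 on 2 or more arrays, with lmFit and eBayes, two-sided, Benjamini-Hochberg adjusted over all 3347 at a threshold of 0.05. The code was tested on simulated data. Where a whole group lay at background, a bound is given against the lowest detected signal of each array, and with no fold where that is under 1. Such a bound compares group means and carries no replicate error. Gene-level values use the brightest tested probe.

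The members, the lists, the tests and the alternatives were chosen with earlier results of these data known. Every member with a tested probe could be named, and the 3 brightest genes of each RNA-processing list. Celf2, Gemin4 and Lsm12 follow that rule. The tables name no genome build, so coordinates are given for RefSeq promoter windows only. Alternatives were other corrections, scalings, offsets and filters, the processed table (floor of 1, then log2), a trended robust variance, weighted arrays, a replicate block and leaving out each array with the others normalised anew. Where 1 KO array was left, it was assumed to vary like the WT arrays.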

Additional observations from a re-analysis of the deposited data

How the results depend on the processing

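With 2 KO arrays and few probes above background, depth of signal limits every value here. Limma called 0 probes under 15 of the 16 alternatives and 27 of 3010 tested probes without KO replicate 1. The probes of Npm1 (3.03) and Snrpb (1.90) were among the 27, where 32 probes of the group were tested. That fit has KO replicate 3 as its only KO array, so its calls cannot separate genotype from that array. The Npm1 probe was above background only on KO replicate 3, where it was high, and WT replicate 1. Pairing by replicate number is not stated in the labels and could not be settled from 2 pairs: deviations of same-numbered arrays correlated at 0.202 and 0.129, and ages matched for replicate 1 and not for replicate 3. The fit with a replicate block made 0 calls (unadjusted p under 0.05 for 178 probes). The median over the splicing and nuclear RNA-binding probes, 0.29, was 0.099 with no background correction, -0.53 with median scaling, 0.64 with detection on all 5 arrays (8 genes), 0.63 with a detection p under 0.01, 0.0094 with no filter, 0.39 with array weights, 0.23 with the replicate block and -0.049 with median scaling of uncorrected signals, an alternative chosen after seeing the data. Leaving out 1 array gave -0.063 to 0.42. The median over the other RNA-processing lists, 0.0085, was -0.0044 with no background correction, -0.45 with median scaling, -0.013 with the authors' processed values, 0.054 with detection on all 5 arrays, 0.086 with the stricter detection p, -0.0061 with no filter, -0.014 with array weights, 0.052 with the replicate block, -0.14 with median scaling of uncorrected signals and -0.055 to 0.14 leaving out 1 array.

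Under median scaling the median of all tested probes was -0.39, and only 0.329% of them were higher in KO. This scaling turned the sign of Hnrnpa1 (-0.58), Hnrnpa2b1 (-0.36), Hnrnpa3 (-0.25), Hnrnpab (-0.30), Hnrnpd (-0.55), Hnrnph1 (-1.15), Hnrnpk (-0.25), Hnrnpm (-1.17), Npm1 (-0.25), Snrpa (-0.31), Snrpb (-1.05), Srsf1 (-0.63), Srsf10 (-0.43), Srsf2 (-0.93), Srsf5 (-1.30) and Tardbp (-0.36). Median scaling of uncorrected signals (all probes -0.11, with 16.5% higher in KO) turned Hnrnpa1 (-0.20), Hnrnpd (-0.13), Hnrnph1 (-0.22), Hnrnpm (-0.11), Snrpa (-0.032), Snrpb (-0.054), Srsf10 (-0.043), Srsf2 (-0.032), Srsf5 (-0.21) and Tardbp (-0.0031). With no background correction Hnrnpa1 was -0.061 and Hnrnpd -0.0028, and with the authors' processed values they were -0.27 and -0.017. The replicate block gave -0.022 for Hnrnpd. Leaving out 1 array in turn gave -0.50 to 0.59 for Hnrnpa1, 0.42 to 1.21 for Hnrnpa2b1, 0.23 to 0.40 for Hnrnpa3, 0.79 to 2.03 for Hnrnpab, -0.47 to -0.15 for Hnrnpc, -0.22 to 0.25 for Hnrnpd, -0.79 to -0.19 for Hnrnpdl, -0.034 to 0.54 for Hnrnph1, 0.28 to 0.85 for Hnrnpk, 0.10 to 1.26 for Hnrnpm, -0.89 to -0.25 for Hnrnpul2, 1.26 to 3.03 for Npm1, 0.058 to 0.23 for Snrpa, -0.47 to 1.90 for Snrpb, -0.10 to 1.82 for Srsf1, 0.14 to 0.59 for Srsf10, 0.20 to 1.33 for Srsf2, 0.069 to 0.44 for Srsf5 and 0.17 to 0.75 for Tardbp. The cause of these turns was not tested. Hnrnpa2b1, Hnrnpab, Hnrnpk and Npm1 had no value without KO replicate 3 or without WT replicate 1, as too few arrays above background remained. Their ranges do not cover those settings. On KO replicate 1 these probes deviated from the WT mean by -0.14, -0.14, -0.096 and -0.30. Hnrnph3, Srsf4 and Srsf11, at background on both KO arrays, have no difference to recompute. Of 286 values of the other genes under alternatives, 245 kept their direction and side of the threshold. The other filters and the trended robust variance left each difference as it was, so direction could not change there. Settings in which a probe was not tested are not among the 286. The count is therefore no measure of stability.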
